A study of Homo sapiens with 2 samples.

Results

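The 9 genes described here carry or read the hedgehog signal: the receptor PTCH1, the co-receptors GAS1, BOC and CDON, the signal transducer SMO, the GLI inhibitor SUFU and the transcription factors GLI1, GLI2 and GLI3. They were taken by gene name from both libraries of a human brain organoid study, and are 9 of the 62704 genes listed in each library. All 9 were detected in both libraries, with between 275 (GLI1) and 131741 (GLI3) counts in the cells library and between 41 (GLI1) and 87404 (GLI3) in the nuclei library.

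Hedgehog ligands bind PTCH1, which without ligand keeps SMO silent. Active SMO, at the primary cilium, stops GLI2 and GLI3 from being cut into repressors, and PTCH1, GLI1 and HHIP are the classic genes that rise when the pathway is on, while CDON, BOC and GAS1 are known to be turned down by it. In the developing forebrain SHH patterns the ventral side, and GLI3 in its repressor form keeps dorsal, cortical progenitors from taking ventral fates.

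All organoids were grown from 1 human embryonic stem cell line, H9, with a commercial cerebral organoid kit in an unguided protocol, and no group carries a labelled genetic change. Control organoids (CO) were sampled at days 45, 55 and 70, dissociated organoids (DISS) were made into single cells at day 45, left to reaggregate and sampled at days 48, 55 and 70, and constrained organoids (CONS) had their Matrigel removed at day 13, were held in agarose and were sampled at day 55. The cells library pools these states. The nuclei library, labelled as a control experiment, holds by the study's methods nuclei of whole CO and of dissociated CO, taken on the day of dissociation. Both were made by split-pool barcoding (split-seq), in which fixed cells or nuclei receive their first barcode in a well of a plate; the cells library used 48 such wells and the nuclei library 12. The labels do not tie any well or barcode to a state or a day, so the states are not compared here. Each library is 1 sample, and no statistical test was possible: intervals are exact 95% counting intervals, and they do not cover differences between organoids or wells.

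A barcode was kept when it had over 500 genes and over 1000 transcripts, with mitochondrial RNA at no more than 20%. This left 20178 cells (median 2615 transcripts) and 14228 nuclei (median 3890). The 407 deepest cells, with over 50000 transcripts each, held 28.5% of all transcripts of the cells library. Clusters were named from fixed marker lists and are called "-like". Radial glia-like barcodes carried SOX2 at 3.47 counts per 10000 transcripts in cells against 0.301 in excitatory neuron-like barcodes, and NEUROD6 at 0.188 against 2.63. Some 8957 cells and 5873 nuclei stayed unnamed. The 2 libraries shared 99 barcode names.

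Per kilobase of exon, GLI3 (chr7:41960949-42264100, minus strand, GRCh38, 303 kb with 13.8 kb of exon) was the most abundant member in both libraries, at 60.7 CPM per kilobase of exon in cells and 87.8 in nuclei. CDON followed in cells at 34.0, then GLI2 at 27.9 and BOC at 18.3. In nuclei GLI2 came next, before CDON at 34.9 and BOC at 30.9. SUFU (10.7 in cells, 10.9 in nuclei) and SMO (10.5 and 8.58) came next. GAS1, a gene without introns, stood at 3.26 and 2.01, PTCH1 at 1.21 and 1.02, and GLI1 at 0.383 and 0.125. Per kilobase of exon the signal-dependent members PTCH1 and GLI1 were thus the scarcest of the 9. In plain counts GAS1 was below PTCH1, with 1615 against 3276 in cells and 457 against 1270 in nuclei. Whether intronic reads were counted is not given in the sources used here, and the order per length holds for exon length only. Where an antisense gene overlaps a member, reads of both could be mixed if strand was not used. A protein-coding gene overlaps GLI1 (ARHGAP9), BOC (CFAP44) and CDON (VSIG10L2) on the opposite strand, whereas none overlaps GLI2, GLI3, PTCH1, SMO, SUFU or GAS1.

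PTCH1 is both the receptor and a direct GLI target, and its level varied widely between wells, so the upstream stretch that holds a GLI consensus is shown. The GLI consensus GACCACCCA, searched on both strands (reverse complement TGGGTGGTC), occurs in 83 of 35116 RefSeq promoter windows of 300 bases (GRCh38.p14), or 0.236%. Of the 9 members, 7 have windows in that table, 15 in all, and 1 window holds the consensus. It lies before 1 of the 5 PTCH1 starts, in an interval that overlaps 6 annotated transcripts, counted for any gene and strand, but no exon. The 250 bases before that start, chr9:95509267-95509516 on the minus strand, are given with the match in capitals, at chr9:95509430-95509438:
PTCH1: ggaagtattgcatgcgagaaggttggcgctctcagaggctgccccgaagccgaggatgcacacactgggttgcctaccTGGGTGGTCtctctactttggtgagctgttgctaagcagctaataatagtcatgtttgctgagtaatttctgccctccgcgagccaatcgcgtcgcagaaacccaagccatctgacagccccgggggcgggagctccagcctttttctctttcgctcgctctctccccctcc
A match of letters is not a measured binding site, and no binding was measured here.

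GLI3 was highest in progenitor classes in both libraries. In cells its level per 10000 transcripts was 15.5 (15.3 to 15.7) in the 1927 radial glia-like barcodes, 17.5 (17.3 to 17.7) in the 1702 S-phase-like and 13.1 (12.9 to 13.3) in the 3318 G2/M-like dividing progenitors. Along the lineage it was lower, at 5.24 (5.06 to 5.43) in the 628 intermediate progenitor-like and 1.76 (1.71 to 1.82) in the 1940 excitatory neuron-like barcodes. The choroid plexus-like class, at 3.78, and the cortical hem-like class, at 2.84, lay between the neurons and the intermediate progenitors. The 8 sub-libraries, technical splits of the same pool, spanned 14.8 to 16.7 in radial glia-like and 1.53 to 2.11 in excitatory neuron-like barcodes, so the classes did not overlap between sub-libraries.

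In nuclei the same 3 progenitor classes were highest, in another order, and the distance to the neurons was larger. GLI3 stood at 25.1 (24.8 to 25.4) in the 2160 radial glia-like nuclei, 21.7 in the 1509 S-phase-like and 19.8 in the 788 G2/M-like. The cortical hem-like class held 6.45, choroid plexus-like 4.69, the 84 Cajal-Retzius-like nuclei 3.41 (2.90 to 3.99), and the 2554 excitatory neuron-like nuclei 1.19 (1.14 to 1.25). No cluster of nuclei met the rule for intermediate progenitors. All neighbours in this order of summed levels were separated beyond their counting intervals. The order of hem and choroid plexus differed between the libraries: in cells hem was lower, with a hem to choroid plexus ratio of 0.752 (0.697 to 0.811), and in nuclei higher, 1.38 (1.30 to 1.45). The share of barcodes with a GLI3 transcript, another measure, separated these classes in neither library once barcodes were thinned to equal depth. At 1000 transcripts it was 24.5% (19.9 to 29.6) in hem-like and 26.2% (23.9 to 28.6) in choroid plexus-like cells, and 26.1% (23.1 to 29.2) and 32.3% (27.9 to 37.0) in nuclei. At 2000 transcripts it was 38.3% and 41.4% in cells and 46.7% and 47.8% in nuclei, and the intervals overlapped again. The names also share markers. In cells the larger choroid plexus-like cluster, of 1253 barcodes, passed 4 choroid plexus and 5 hem markers, and the hem-like cluster 4 and 6. In nuclei the choroid plexus-like cluster passed 4 and 3, and the hem-like cluster 4 and 4. No order of hem and choroid plexus is therefore read from either library. In the cells library 63.5% of the hem-like barcodes came from 1 well; the part of that well in the order was not tested.

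**Figure D1:**
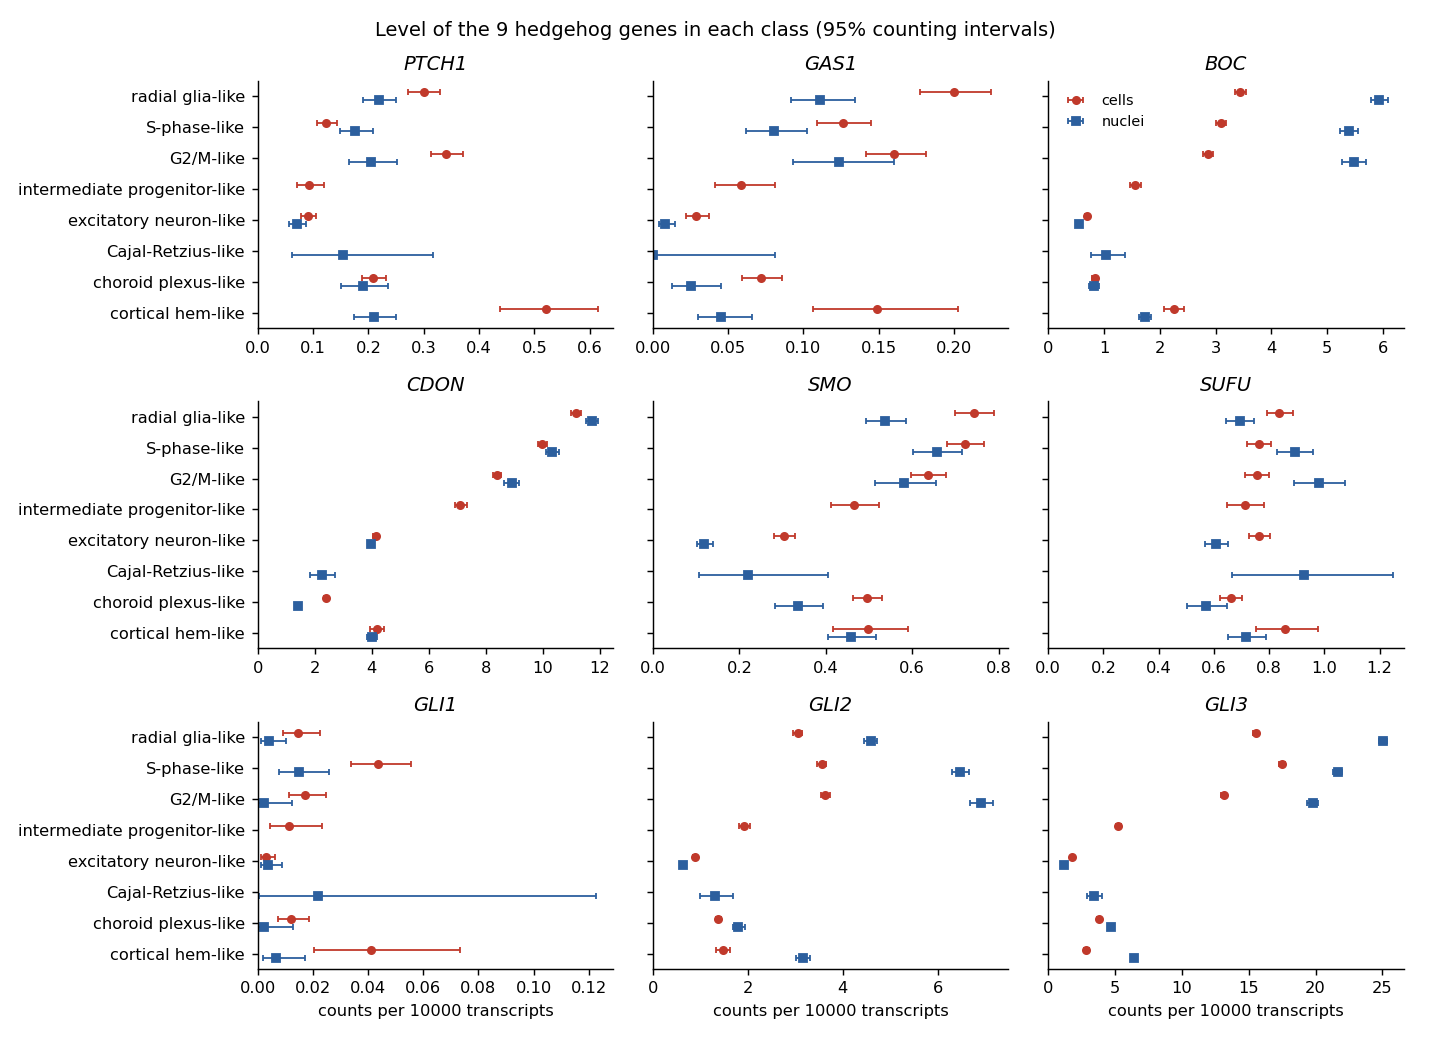
Counts per 10000 transcripts (x axis) of each of the 9 genes in each class (rows) of the cells (red circles) and nuclei (blue squares) libraries, with exact 95% counting intervals. GLI3, BOC, CDON and GLI2 are highest in the 3 progenitor classes at the top of each panel. SUFU runs from 0.573 to 0.980 in nuclei, and PTCH1 in cells is highest in the cortical hem-like class, at 0.521.

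GLI3 was also read as the share of barcodes that held a transcript. After every barcode was thinned to 1000 transcripts, a GLI3 transcript remained in 72.2% (70.2 to 74.2) of radial glia-like cells, 78.4% of S-phase-like and 62.9% of G2/M-like cells. The share was 35.7% in intermediate progenitor-like and 13.3% (11.8 to 14.9) in excitatory neuron-like cells. In nuclei it was 88.8% (87.4 to 90.1) in radial glia-like and 8.18% (7.15 to 9.31) in excitatory neuron-like barcodes. Without thinning 93.8% of radial glia-like cells and 99.0% of radial glia-like nuclei had a GLI3 transcript. The median depth of radial glia-like and excitatory neuron-like barcodes was 5184 and 7194.5 transcripts in cells and 4149.5 and 4369 in nuclei, so the neurons were not the shallower class. Barcodes of 10 to 100 transcripts were taken to stand for free RNA, which was not tested. Free RNA alone, at their level, would give a GLI3 transcript in 57.5% of barcodes thinned to 1000 transcripts in the cells library. In the nuclei library it would give 66.4%. The share in G2/M-like cells was near that value, and those in excitatory neuron-like barcodes were far below it, so these shares do not count the progenitors that express GLI3.

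The GLI3 level was also read in every cluster, beside the level taken for free RNA. Barcodes of 10 to 100 transcripts, not shown to be without cells, carried GLI3 at 8.56 per 10000 in the cells library and 10.9 in the nuclei library. This was close to the mean over all kept barcodes (8.37 and 12.1). Excitatory neuron-like barcodes lay far below that background, at 0.206 times its level in cells and 0.109 times in nuclei. Several shallow clusters of cells lay near it. Unnamed clusters with medians of 1450, 1450.5 and 1580 transcripts had GLI3 at 8.54, 7.42 and 8.78, and G2/M-like clusters with medians of 1461.5 and 1464 had 9.77 and 7.68. The deeper G2/M-like cluster, with a median of 8396, had GLI3 between 14.8 and 15.2 (its interval). The S-phase-like cells split in the same way, with an interval of 24.6 to 25.4 in the cluster with a median of 5617 and a level of 13.0 in that with a median of 1999. The part of free RNA in the shallow clusters was not tested. In nuclei the shallow unnamed clusters were spread widely: those with medians of 1769, 2021, 2542 and 2567 transcripts had 16.3, 24.2, 17.2 and 1.70.

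**Figure D2:**
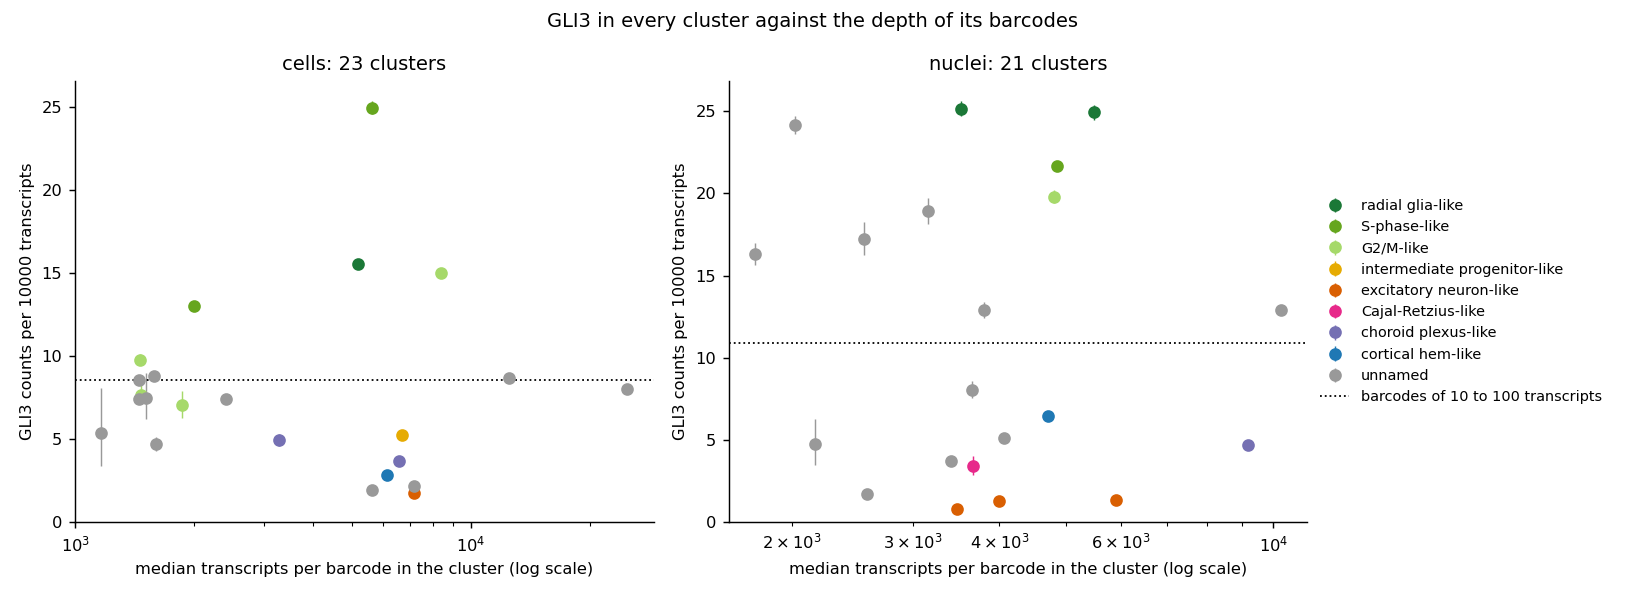
GLI3 counts per 10000 transcripts (y axis) against the median transcripts per barcode (x axis, log scale) in each cluster, coloured by class, with 95% counting intervals; the dotted line is the level in barcodes of 10 to 100 transcripts, 8.56 in cells and 10.9 in nuclei. In cells most clusters under 2000 transcripts lie within a few counts of the line, with an S-phase-like one at 13.0 above it and an unnamed one at 4.71 below it, while deeper clusters spread from 1.76 upward; in nuclei the levels spread at all depths.

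GLI3 also separated these classes when read well by well. Among the 24 wells of the cells library with at least 20 radial glia-like barcodes its level ran from 10.9 to 22.5. Among the 32 wells with at least 20 excitatory neuron-like barcodes it ran from 0.460 to 2.93, with a median of 1.45, so the lowest well of the one class lay above the highest of the other. In nuclei 10 wells gave 16.8 to 26.2 in radial glia-like barcodes, and 12 wells gave 0.715 to 1.80 in excitatory neuron-like barcodes, again without overlap.

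The other members were read in the same wells. BOC ran from 1.71 to 4.42 per 10000 in radial glia-like and from 0 to 1.65 in excitatory neuron-like wells of the cells library, and from 3.35 to 7.80 and 0.320 to 0.839 in nuclei. GLI2 ran from 1.49 to 4.93 and from 0.250 to 1.38 in cells. The point values of these wells again did not overlap between the classes. The lowest radial glia-like BOC well, on 29 counts, had an interval of 1.15 to 2.46, which reaches below the highest excitatory neuron-like well. The share of all genes whose wells separate in this way was not counted. CDON did overlap in cells, at 4.21 to 18.97 and 1.52 to 6.09, and did not in nuclei, at 6.94 to 14.3 and 2.37 to 4.73. PTCH1 overlapped in both libraries, running from 0 to 1.45 in radial glia-like and 0 to 0.471 in excitatory neuron-like wells of the cells library, and from 0.0747 to 0.582 and 0.0262 to 0.158 in nuclei. In radial glia-like cells the lowest CDON level, 4.21, and the highest PTCH1 level, 1.45, were both of well D9, described further on.

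The comparison of radial glia-like with excitatory neuron-like barcodes asked which members go with progenitors and which persist in neurons. GLI3 had the largest ratio of the 9, 8.80 in cells (8.50 to 9.12; log2 3.14) and 21.0 in nuclei (20.0 to 22.1; log2 4.39). Among the 24493 genes with at least 20 counts over both classes it ranked 54th in cells, and 91st of 18950 in nuclei. Of the 9 members, 8 were at least 2-fold higher in radial glia-like cells, where 10.4% of all genes were. In nuclei it was 7 of the 8 members with enough counts, where 19.9% of all genes were. None was at least 2-fold lower in either library, against 8.45% of genes in cells and 12% in nuclei. The median log2 ratio was 1.79 over the members and 0.14 over all genes in cells, and 2.52 against 0.22 in nuclei.

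The size of the GLI3 ratio in cells, and its place as the largest, depended on which barcodes were called excitatory neuron-like. A shallow cluster of 2201 cells with 3 neuronal markers and GLI3 at 8.78 was kept out of that class by a rule, added after the values were seen, that asks for a marker among the leading genes or for most of the list. With it the class grew to 4141 cells, its GLI3 level rose to 3.06, and the ratio dropped to 5.07 (4.94 to 5.20), while the count of members past 2-fold stayed at 8. Other settings also gave lower ratios: 4.03 and 4.74 at a finer and a coarser resolution, 4.38 with hedgehog genes among the variable genes, 3.93 with mitochondrial RNA at no more than 10% and 3.98 without the highest doublet scores. In these 5 the neuron class had GLI3 at 3.26 to 4.19. Over 13 alternatives GLI3 had the largest ratio in 5, GAS1 in 6 and GLI1, on few counts, in 2. In nuclei GLI3 was the largest in all 12 alternatives, with ratios from 18.4 to 28.9.

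**Figure D3:**
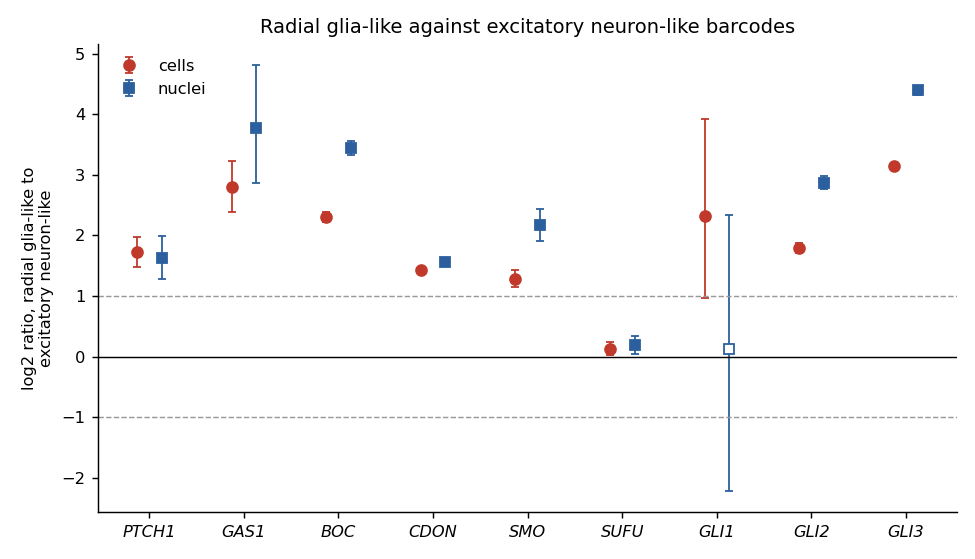
Log2 ratio of the level in radial glia-like to that in excitatory neuron-like barcodes (y axis) for the 9 genes in cells (red) and nuclei (blue), with exact 95% counting intervals; dashed lines mark 2-fold and the open symbol has under 20 counts. All genes but SUFU lie above the upper dashed line, except GLI1 in nuclei, and GLI3 is the highest point of each library as plotted, though GAS1 or GLI1 exceeds it in cells under 8 of 13 alternatives.

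The receptor PTCH1 was 3.30-fold higher (2.77 to 3.95) in radial glia-like than in excitatory neuron-like cells, 0.300 against 0.0907 per 10000, and 3.09-fold (2.42 to 3.98) in nuclei, 0.219 against 0.0707. Above 5000 transcripts the ratio in cells was 5.17. It did not follow GLI3 outside this pair. In cells the cortical hem-like class was highest, at 0.521 (0.438 to 0.614), where GLI3 was low, and S-phase-like cells, which were highest in GLI3, had 0.124. Of the 140 PTCH1 counts in the hem-like class 30 came from 3 barcodes of 1 well, D9, described further on, and the class stood at 0.414 (0.340 to 0.499) without them. In nuclei the radial glia-like, S-phase-like, G2/M-like, choroid plexus-like and hem-like classes ran from 0.177 to 0.219, with overlapping intervals. The highest nuclei cluster with at least 50 barcodes was unnamed, with 231 barcodes and PTCH1 at 0.573. It passed 3 hem and 3 radial glia markers, and the hem list was its best match.

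The co-receptors present ligand to PTCH1. GAS1, a membrane-anchored protein, was 6.92-fold (5.22 to 9.33) higher in radial glia-like than in excitatory neuron-like cells and 13.6-fold (7.31 to 28.0) in nuclei, on 286 and 59 counts in cells and 110 and 11 in nuclei. Its ratio ranged from 4.58 at the finer resolution of 2 to 10.7 above 5000 transcripts in cells, and was 7.11 at resolution 2 in nuclei. BOC, an immunoglobulin-domain co-receptor, was 4.92-fold (4.64 to 5.23) and 10.9-fold (10.1 to 11.8) higher. Its ratio in cells was 3.17 with mitochondrial RNA at no more than 10% and 3.18 at resolution 2. In cells it kept 2.25 per 10000 in the hem-like class, against 0.830 in choroid plexus-like cells, classes whose markers overlap. CDON, the relative of BOC, differed less along the lineage: its level was 11.2 in radial glia-like, 7.12 in intermediate progenitor-like and 4.15 in excitatory neuron-like cells, a radial glia to neuron ratio of 2.69 (2.62 to 2.76), and the ratio in nuclei was 2.96 (2.86 to 3.06). Of all classes choroid plexus-like barcodes had the least CDON, 2.41 in cells and 1.40 in nuclei. After thinning to 1000 transcripts CDON remained in 59.2% of radial glia-like and 28.2% of excitatory neuron-like cells, and in 64.3% and 30.4% of nuclei, whereas BOC remained in 26.9% and 5.62% of cells and 43.2% and 4.86% of nuclei. Neurons had CDON near the level of the hem-like class (hem to neuron ratio 1.01 in both libraries, 0.947 to 1.07 in cells and 0.963 to 1.06 in nuclei), while BOC in neurons was 0.311 times the hem level in cells.

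SMO, the transducer that PTCH1 restrains, was 2.44-fold (2.21 to 2.70) higher in radial glia-like cells and 4.51-fold (3.77 to 5.42) in nuclei. SUFU, which holds GLI proteins in the cytoplasm, was the member that differed least, with a ratio of 1.09 (1.01 to 1.18) in cells and 1.14 (1.03 to 1.26) in nuclei. Its lowest and highest class levels in cells were 0.662 in choroid plexus-like and 0.859 in hem-like barcodes. In nuclei they were 0.573 in choroid plexus-like and 0.980 in G2/M-like barcodes. In excitatory neuron-like barcodes SUFU was at 1.17 times the free-RNA level in cells and 1.04 times in nuclei.

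Of the transcription factors, GLI2, the main activator, was 3.47-fold (3.28 to 3.66) higher in radial glia-like cells and 7.31-fold (6.79 to 7.88) in nuclei, where it was 4.83-fold with over 700 transcripts and under 0.9 genes per transcript as the limits. In nuclei GLI2 was higher in both dividing classes than in radial glia-like barcodes: its level per 10000 was 4.59 in radial glia-like, 6.47 in S-phase-like and 6.91 in G2/M-like barcodes. The radial glia-like clusters of nuclei differed, at 5.34 and 3.70. An unnamed cluster of 1265 nuclei, with 2 radial glia markers, 1 S-phase marker and no G2/M marker, had GLI2 at 7.04, so a high level was not particular to the dividing classes. In cells the summed levels were 3.05, 3.56 and 3.63, but only the deeper dividing clusters lay above the radial glia-like level, G2/M-like at 4.19 and S-phase-like at 4.81, and the shallow ones were below it, from 1.64 to 2.80. The share of cells with a GLI2 transcript after thinning to 1000 transcripts overlapped. It was 24.2% (22.3 to 26.2) in radial glia-like, 25.4% (24.0 to 27.0) in G2/M-like and 27.9% (25.8 to 30.1) in S-phase-like cells. At 2000 transcripts it was 40.8% (38.4 to 43.2), 45.3% (42.8 to 47.8) and 47.4% (44.3 to 50.4), so the S-phase-like share lay above the radial glia-like one there. The GLI2 ratio of radial glia-like to G2/M-like barcodes was 0.664 (0.634 to 0.695) in nuclei and 0.839 (0.806 to 0.872) in cells, and the GLI3 ratio was 1.27 (1.24 to 1.30) and 1.18 (1.16 to 1.21). In cells the GLI3 difference lay in the shallow G2/M-like clusters, the deep one being close to the radial glia-like level (14.8 to 15.2 against 15.3 to 15.7), and in the shallow ones both genes were lower than in radial glia-like cells.

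GLI1, which is made mostly where the pathway is on, had 21 counts in radial glia-like and 6 in excitatory neuron-like cells, a ratio of 5.00 with an interval of 1.95 to 15.1. Over the alternatives it ran from 2.77 at resolution 0.5 to 10.4 with another seed. Its highest level in cells was 0.0437 (0.0339 to 0.0555) in the S-phase-like class, on 67 counts. The hem-like class outside well D9 was close, at 0.0414 (0.0207 to 0.0741) on 11 counts, so these classes were not separated. In nuclei 4 and 5 counts in the 2 classes were too few to compare.

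The other hedgehog genes were 31, listed by role, of which 28 had at least 20 counts in cells and 24 in nuclei; in each library 24 had at least 20 counts over radial glia-like and excitatory neuron-like barcodes. In each library 4 of the 24 were at least 2-fold higher in radial glia-like barcodes, where 10.4% of all genes were in cells and 19.9% in nuclei, so the count in nuclei is no higher than the background. They were HHAT, which adds palmitate to the ligand (2.55-fold in cells, 7.47-fold in nuclei), LRP2, an endocytic co-receptor (2.01 and 3.62), and EVC (2.40 and 5.63) and EVC2 (2.00 and 5.42), which pass the signal on from SMO at the cilium base. DHH, a ligand, was at least 2-fold lower in radial glia-like cells, with a ratio of 0.387 (0.241 to 0.602), on 26 and 96 counts.

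The ligand SHH was scarcely detected, with 3 counts in radial glia-like and 6 in excitatory neuron-like cells, and 44 counts over the whole cells library. Of the ventral genes that SHH induces, NKX2-1 had 0 counts among the kept barcodes of both libraries, NKX2-2 had 3 in cells and 1 in nuclei, OLIG2 had 6 and 2, FOXA2 had 20 and 2, and NKX6-2, which a protein-coding gene (INPP5A) overlaps on the opposite strand, had 27 and 3. None of the 5 had a count in radial glia-like cells, and 1 count of NKX6-2 was their total in radial glia-like nuclei.

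Across clusters of at least 50 barcodes, the gene whose level most resembled that of GLI3 was DOK5 in cells (r = 0.957 over 22 clusters and 16221 genes), followed by FOXP1, PTGFRN, ABCC4 and GPC6, and CELSR1 in nuclei (r = 0.988 over 20 clusters and 11690 genes), followed by NR2E1, DOK5, ITGA2 and BEND7. DOK5 was on both lists. Among the members BOC was closest to GLI3, at 0.877 in cells and 0.944 in nuclei, then CDON (0.790) and GLI2 (0.734) in cells, and GLI2 (0.940) and SMO (0.920) in nuclei. PTCH1 was the least alike of the members compared in nuclei (0.386) and near 0 in cells (0.0296), and SUFU was at -0.115 in cells. GLI1 in both libraries and GAS1 in nuclei had under 500 counts and were not compared. The genes most like PTCH1 were FAP, EPN1, ENSG00000285796, JAG1 and RSPO3 in cells, with the highest r at 0.809, and LINC03000, PPP4R4, SOX13, HIBADH and ALCAM in nuclei, with the highest at 0.860. These values describe clusters of 1 library, which share depth and free RNA, and carry no test. In cells the PTCH1 values also include well D9, described further on, which held 42.6% of 1 G2/M-like cluster. PTCH1 in that cluster was 0.573 with the well and 0.222 without it. Likeness without this well was not computed.

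Within the radial glia-like class, CDON and BOC were found somewhat more often in cells that had a GLI3 transcript. After thinning, CDON was present in 62.2% (59.6 to 64.8) of cells with a GLI3 transcript and 51.4% (47.1 to 55.7) of those without, and BOC in 29.0% (26.6 to 31.4) and 21.7% (18.3 to 25.4). For PTCH1 the shares were 3.02% and 3.36%, and for GAS1 1.72% and 1.31%, with overlapping intervals. In nuclei the intervals overlapped for all of these genes, with CDON at 64.4% and 63.6%, BOC at 44.1% and 36.8%, PTCH1 at 1.88% and 1.65% and GAS1 at 1.30% and 2.89%. Barcodes share wells and the class itself is mixed, so these intervals cover counting error only.

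One well of the cells library stood apart in the genes that report the signal; it was singled out after its values were seen. Well D9 held 1314 kept barcodes and 7.35% of all transcripts, but 1159 of the 3276 PTCH1 counts, or 35.4%. PTCH1 stood there at 1.00 per 10000 (0.946 to 1.06), against 0.145 in all other wells together, and the next well of the 46 with at least 50 barcodes, D8, had 0.642. The ratio to the other wells was 6.90, which placed PTCH1 at rank 3 among 20734 genes with at least 200 counts.

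The other classic targets were high in the same well. GLI1 had 65 of its 275 counts there, 3.90-fold the level of the other wells and rank 12 of 20734 genes. HHIP, the decoy receptor that soaks up ligand, had 135 of 640 counts, 3.37-fold the level of the other wells and rank 15. Smaller wells reached higher in both: D9 was the sixth highest of 46 wells in GLI1 and was passed by 1 well in HHIP. CDON went the opposite way, with 3.43 per 10000 against 7.03, a ratio of 0.487. GLI3 (0.911), GLI2 (1.19), BOC (1.13), GAS1 (0.939), SMO (0.777) and SUFU (0.914) lay between 0.777 and 1.19 times the other wells. Thus 2 of the 9 members were at least 2-fold higher in well D9, where 1.09% of genes were, and 1 was at least 2-fold lower, where 4.26% of genes were. Of the 24 other hedgehog genes with enough counts, HHIP was at least 2-fold higher and DHH lower.

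**Figure D4:**
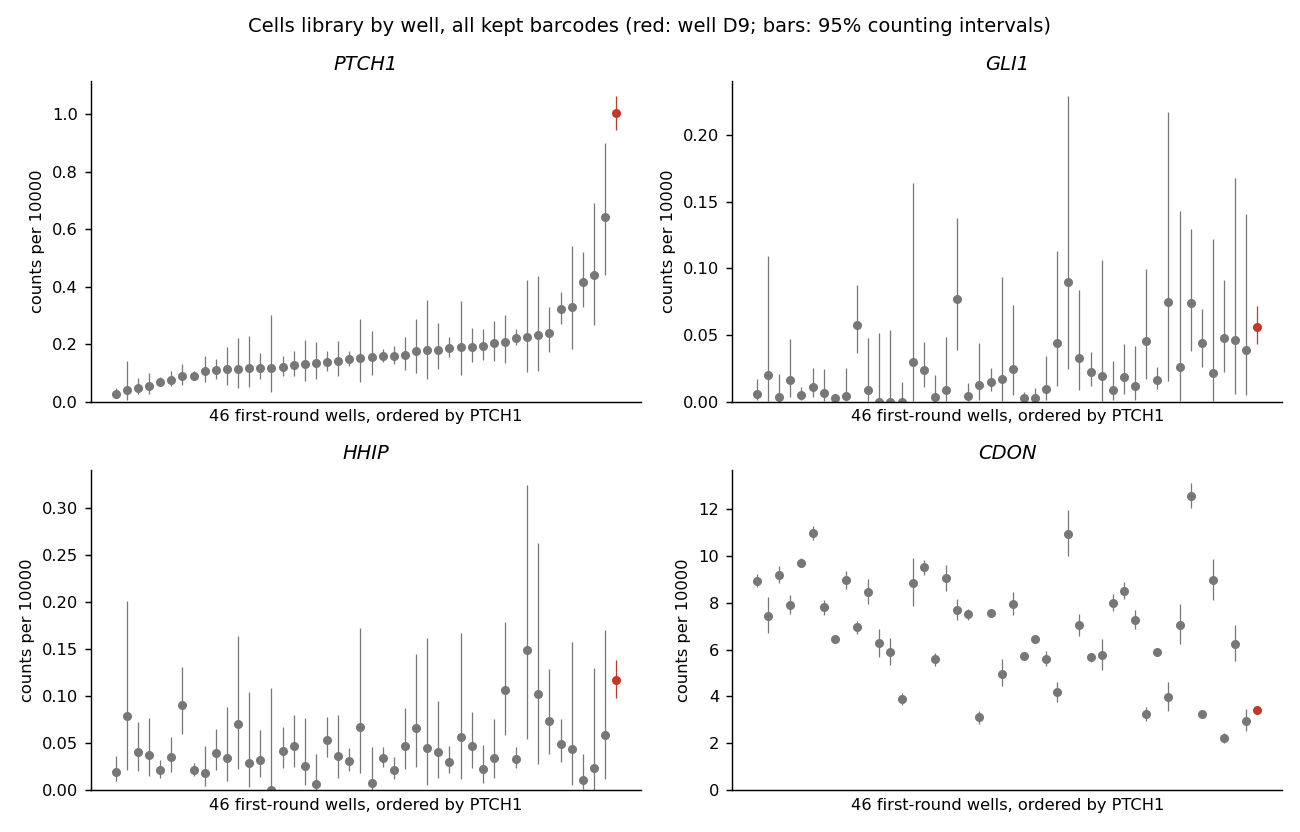
Counts per 10000 transcripts (y axes) of PTCH1, GLI1, HHIP and CDON in the 46 wells of the cells library with at least 50 kept barcodes, in the same order by PTCH1 in every panel (x axes), with 95% counting intervals. Well D9, in red, is highest in PTCH1 at 1.00 and among the higher wells in GLI1 (0.0562) and HHIP (0.117), while its CDON, 3.43, is the sixth lowest; the wide intervals belong to wells with few transcripts.

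The pattern was seen in several classes and many barcodes, though not clearly in every cluster. In 1 unnamed cluster, on 32 barcodes of the well, the PTCH1 intervals overlapped, at 0.160 (0.0436 to 0.410) against 0.0857 (0.0657 to 0.110). In radial glia-like cells PTCH1 was 1.45 (1.22 to 1.71) in well D9, on 92 barcodes, and 0.218 (0.194 to 0.245) in all other wells. In G2/M-like cells it was 1.15 (1.02 to 1.29), on 913 barcodes, and 0.192 (0.169 to 0.217). In excitatory neuron-like cells it was 0.454 (0.288 to 0.681), on 41 barcodes, against 0.0814 (0.0694 to 0.0950). After thinning to 1000 transcripts, 9.31% of G2/M-like barcodes of well D9 had a PTCH1 transcript and 1.91% of those of the other wells. In all, 349 barcodes of the well had at least 1 PTCH1 count, with at most 31 in 1 barcode, and without barcodes over 50000 transcripts the well stood at 1.02 and the others at 0.156.

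CDON was lower in each of these classes of the well: 4.21 against 11.7 in radial glia-like, 3.51 against 9.31 in G2/M-like and 3.04 against 4.18 in excitatory neuron-like cells. Of the 24 wells with at least 20 radial glia-like cells D9 had the highest PTCH1 and the lowest CDON. GLI3 in radial glia-like cells of the well was 13.8 (13.0 to 14.5), against 15.6 in the others, and in G2/M-like cells 8.92 against 13.9. The well's G2/M-like cells sat mostly in the shallow G2/M-like cluster, 859 of 913, of which they made up 42.6%. Within that cluster PTCH1 was 0.989 (0.844 to 1.15) in the well and 0.222 (0.161 to 0.297) in the others, CDON 3.12 against 7.02 and GLI3 7.91 against 11.3. Within the deep G2/M-like cluster, on 50 barcodes of the well, PTCH1 had an interval of 1.23 to 1.80 on 115 counts, against 0.198 (0.171 to 0.228), CDON 4.38 against 10.3 and GLI3 11.1 against 15.3. In the unnamed cluster with 134 barcodes of the well GLI3 was 7.51 (7.30 to 7.72) against 9.21 (9.06 to 9.37). In the unnamed one with 32 it was 1.96 (1.45 to 2.59) against 1.92 (1.82 to 2.02).

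**Figure D5:**
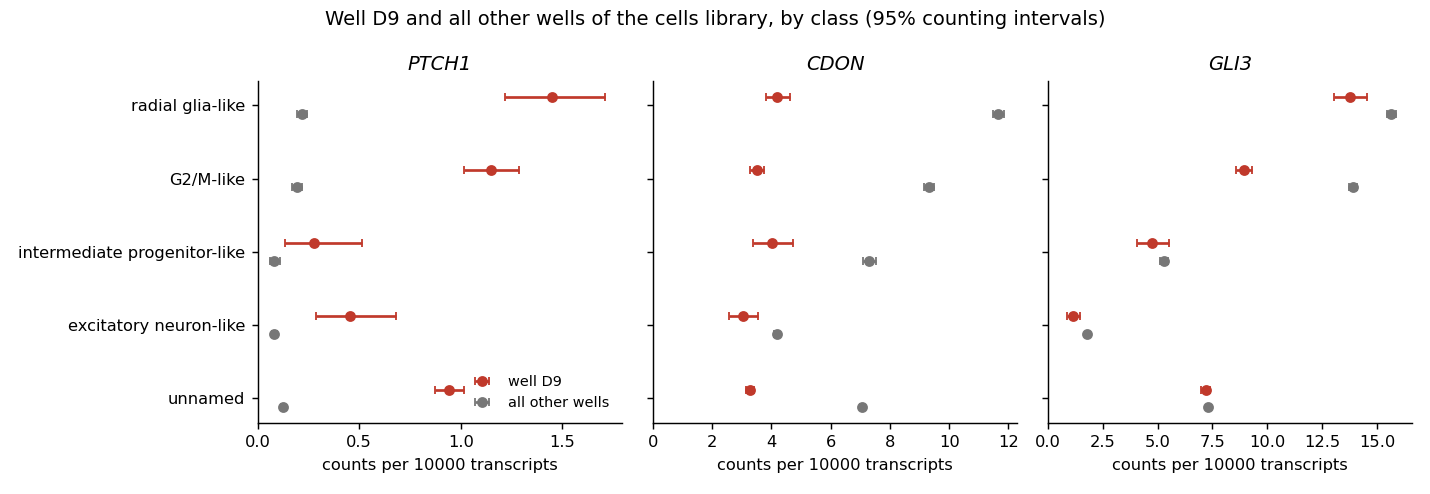
Counts per 10000 transcripts (x axes) of PTCH1, CDON and GLI3 in well D9 (red) and in all other wells (grey) of the cells library, by class (rows), with 95% counting intervals. PTCH1 is higher and CDON lower in well D9 in all 5 classes drawn, and GLI3 is lower in radial glia-like, G2/M-like and excitatory neuron-like cells, with overlapping intervals in intermediate progenitor-like and unnamed cells. Unnamed cells are pooled over unlike clusters.

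Ligand and ventral genes were too scarce to compare: well D9 had 1 SHH count, 0 counts of NKX2-1, NKX2-2 and OLIG2, 1 of NKX6-2 and 2 of FOXA2. Dorsal forebrain transcription factors, picked after the well was, were higher over all its barcodes than in the other wells. EMX2 stood at 1.99 against 1.40 and PAX6 at 2.31 against 1.52. Both are also radial glia markers, in cells at 2.22 and 2.66 in radial glia-like against 0.412 and 0.427 in excitatory neuron-like barcodes. Of the barcodes of well D9 69.5% were G2/M-like and 3.12% excitatory neuron-like. EMX2 and PAX6 were not compared within classes, and the part of this make-up in their levels was not tested. Which state, day or organoid batch the well held is not given by the labels, so the state, the batch and the well cannot be told apart.

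The class comparison for the 2 target genes moved with this well. Without it the radial glia to neuron ratio of PTCH1 in cells dropped from 3.30 to 2.68 (2.20 to 3.27) and that of GLI1 from 5.00 to 2.98 (1.04 to 9.69), the latter on 18 counts, so that 7 members in place of 8 had enough counts and passed 2-fold. The GLI3 ratio without it was 8.80 (8.49 to 9.12).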

How the data were processed

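Brain organoids of the H9 line were profiled by split-seq in 2 libraries, of cells and of nuclei. According to the study's methods the authors ran the barcoding kit's own pipeline on GRCh38, in 8 and 2 sub-libraries, and deposited unfiltered transcript counts per gene and barcode. These counts were used as deposited, without normalization.

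The 9 members and all gene lists were chosen with earlier results of these data known. Levels are summed counts over summed transcripts per 10000, with exact Poisson intervals (95%), and ratios have exact conditional intervals. Genes were compared where both classes together had at least 20 counts, and members are named throughout; other pathway genes are named past 2-fold. Clustering (scanpy 1.11.5) used 10000-scaled log values, 2000 variable genes less the hedgehog genes, 30 components, 15 neighbours and Leiden resolution 1. A class name needed 3 fixed markers at 1.5 times the other barcodes and in 25% of the cluster, plus the rule on leading genes. The rule on leading genes, the limit of 50000 transcripts and well D9 were chosen after seeing the data. Shares of barcodes with a transcript were taken after thinning to 1000 transcripts, with exact binomial (Clopper-Pearson) intervals. Likeness between genes is Pearson's r of log levels over clusters. Scrublet marked 0 doublets and so did not work; 1009 cells and 427 nuclei with the highest scores were left out in an alternative. The script was tested on simulated data. Intervals cover counting error only, and each library is 1 sample, so no test was run. Some genes of the lists are not reported here.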

Additional observations from a re-analysis of the deposited data

Results flagged for a closer look

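GLI3 was also counted in barcodes left out for mitochondrial RNA above 20%, which no comparison uses. In the cells library 95 such barcodes held 156 GLI3 counts, a level of 2.32 per 10000 transcripts (1.97 to 2.72), against 8.37 in the kept cells. In the nuclei library 28 held 18 GLI3 counts, a level of 3.10 (1.84 to 4.90), against 12.1 in the kept nuclei. Both lay above the limit that a count of 0 allows.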

How the results depend on the processing

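No paired analysis was possible because each library is 1 sample and no test was run. The log2 ratio of GLI3 between radial glia-like and excitatory neuron-like barcodes kept its direction under all alternatives run. In cells (3.14) it was 3.35 as a mean over barcodes, 2.82 and 3.36 in the lowest and highest sub-library, 1.97 with mitochondrial RNA at most 10%, 3.32 above 5000 transcripts, 1.99 without the highest doublet scores, 2.24 and 2.01 at Leiden resolution 0.5 and 2, 2.13 with hedgehog genes among the variable genes, 2.79 with seed 1, 3.08 at most 50000 transcripts and 2.34 without the rule on leading genes. In nuclei (4.39) it was 4.61 as a mean over barcodes, 4.48 in the highest sub-library, 4.31 with over 700 transcripts and under 0.9 genes per transcript, 4.85 without the highest doublet scores, 4.20 at resolution 2 and 4.63 at most 50000 transcripts. The share of radial glia-like cells with GLI3 (72.2%) was 88.7% at 2000 transcripts, 93.8% without thinning, 68.3% and 75.7% in the lowest and highest sub-library, 77.4% above 5000 transcripts and 78.2% at resolution 2. In nuclei (88.8%) it was 98.1% at 2000 transcripts, 99.03% without thinning, 82.2% with over 700 transcripts, 87.1% and 86.0% at resolution 0.5 and 2, 86.1% with hedgehog genes among the variable genes and 86.8% with seed 1. SUFU reversed, to -0.058 in the lowest sub-library of cells and -0.13 in nuclei with mitochondrial RNA at most 10%. The causes were not tested. The count of members past 2-fold stayed within 1.5 times under each alternative. Of 216 values for single other members 145 moved by less than their spread, 69 moved further and 2 reversed.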
